A study of Danio rerio with 12 samples.

Results

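Expression of 7 genes of the NF-kB system was examined in white skeletal muscle of zebrafish by RNA sequencing: 3 genes of inhibitors (nfkbiaa, nfkbiab and tnfaip3) and 4 genes of transcription factor subunits (rela, nfkb1, relb and nfkb2). They were found by their gene symbols in the deposited count tables, where each symbol belonged to 1 identifier, and they are 7 of the 31962 genes listed. There were 12 libraries, 3 in each of 4 groups: non-exercised wild-type fish, exercised wild-type fish, non-exercised Gr mutants and exercised Gr mutants. The wild-type fish were supplied at 3 months of age, and the age of the mutants is not given in the sources used here. The mutants are of the line gr s357, which carries a point mutation in the part of the glucocorticoid receptor (Gr, gene nr3c1) that binds DNA, in every cell and from the start of life. Training lasted 4 weeks, with 5 days of swimming a week and 6 h a day, at 0.4 m/s, and non-exercised fish stayed at a flow of 0.1 m/s. Each library came from the epaxial fillet of a different fish. Every exercise group had its own swim tunnel, so an effect of the tunnel and an effect of exercise cannot be told apart, whereas both genotypes swam in the same tunnels and were identified afterward. The mutant line was obtained from another laboratory, and whether it shares its background with the wild-type fish is not given. The authors also report that the mutants were bigger. An effect of the line or of body size and an effect of the mutation cannot be told apart. The comparisons ask which differences follow exercise, which go with the Gr mutant genotype, and whether the response to exercise depends on genotype.

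NF-kB transcription factors are dimers of Rel proteins that IkB proteins hold inactive in the cytoplasm. When receptors for cytokines or microbial products activate the IkB kinases, the inhibitor is destroyed, the dimer enters the nucleus and switches on genes of inflammation and survival, among them those of its own inhibitors, which end the response. In mammals, glucocorticoids restrain this pathway, and NF-kB activity in muscle accompanies inflammation and wasting.

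Between 7688323 and 13894240 reads were counted on genes per library, and levels are given as CPM, read counts scaled to the size of the library, with TMM factors over all 12 libraries. They are not corrected for transcript length, so a gene, or a sum or ratio of genes, is compared only with itself across libraries. All 7 members passed the filter of at least 10 counts in at least 3 libraries in every comparison. The 8 markers of fast muscle were found in every library and summed to between 69699 and 169720 CPM. In exercised fish their sum did not overlap between genotypes, at 69699 to 116201 CPM in wild-type fish and 121624 to 169720 CPM in Gr mutants. Over all 12 libraries, slow muscle markers summed to 625 to 4540 CPM and skin markers to 104 to 861 CPM. The part of slow muscle and skin in the levels of the members was not tested. In 2 non-exercised Gr mutants, replicates 1 and 2, the summed level of 13 leukocyte genes was 776 and 453 CPM, against 49.1 to 133 CPM in the other 10 libraries. Erythrocyte genes summed to 2513 CPM in exercised wild-type replicate 2 and to at most 479 CPM elsewhere, and oocyte genes to 178 CPM in exercised Gr mutant replicate 3 and to at most 17.2 CPM elsewhere. For several results, values without these libraries are also given. Removal of both libraries of high leukocyte level leaves 1 library, replicate 3, of non-exercised Gr mutants, which is then assumed to vary like the libraries of the other groups fitted. In the 6 wild-type libraries nr3c1 itself was at 27.4 to 59.9 CPM, and in the 6 mutant libraries at 37.1 to 66.9 CPM, and a point mutation need not alter this level. As the tissue was sequenced in bulk, a smaller number of cells of a type and less RNA per cell cannot be told apart.

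Of the 7 members, nfkbiab was the gene that separated the genotypes. It encodes a copy of IkBa, the inhibitor that binds NF-kB dimers and is itself induced by NF-kB. In mammals, transcription of this inhibitor is also raised by glucocorticoids. Non-exercised wild-type fish had 99.4, 96.5 and 81.4 CPM of nfkbiab, and exercised ones 71.6, 129 and 62.4 CPM. In Gr mutants it was 34.7, 19.1 and 39.4 CPM without exercise and 40.1, 38.8 and 34.7 CPM with exercise. The lowest of the 6 wild-type libraries was thus above the highest of the 6 mutant libraries at both exercise levels. These levels rest on 830 to 1369 counts per wild-type library and 235 to 586 counts per mutant library.

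Over both exercise levels, nfkbiab was 2.63-fold lower in Gr mutants than in wild-type fish, a log2 difference of -1.39 (standard error 0.223, 95% interval -1.87 to -0.91). The adjusted p was 0.00446 (edgeR quasi-likelihood test, Benjamini-Hochberg method). It was the only member of 7 past the threshold of 0.05, in a comparison in which 7.93% of all genes tested passed, and 4.63% passed as lower in the mutants. Levels that were lower in the mutants without overlap were found in 2.42% of all genes. DESeq2 also called nfkbiab and no other member (adjusted p = 1.2e-07), beside 13.3% of all genes. The call held with each of the 12 libraries left out in turn, at adjusted p-values of 0.00229 to 0.0126 in edgeR. It also held without both libraries of high leukocyte level, where the difference was -1.22 (adjusted p = 0.014 in edgeR). It was lost when all 4 libraries that stand apart were left out together, where the difference was -0.98 (adjusted p = 0.058 in edgeR). Far fewer of all genes passed in that fit as well, and it holds fewer mutant libraries. Why the call was lost was not tested. Genes of fibroblasts and connective tissue, another content of the fillet, also differed, and 5 of 5 were found in every library. They summed to 543 to 783 CPM in non-exercised and 1629 to 2297 CPM in exercised wild-type fish. In the mutants they summed to 861 to 4821 CPM without and 4102 to 5772 CPM with exercise. The part of this list and of the fast muscle markers in the level of nfkbiab was not tested.

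Within one exercise level, with 3 libraries against 3, the same gene missed the threshold. In non-exercised fish nfkbiab was 2.95-fold lower in the mutants (log2 -1.56, standard error 0.314, adjusted p = 0.0974 in edgeR), and in exercised fish 2.36-fold lower (log2 -1.24, standard error 0.281, adjusted p = 0.0552 in edgeR). Unadjusted p-values were 0.00101 and 0.00197. Levels lower in the mutants without overlap, as those of nfkbiab, were found in 11.3% and 12.8% of all genes. DESeq2 called nfkbiab in both, with adjusted p-values of 0.000491 and 0.00509, where it called 4.84% and 6.69% of all genes. With edgeR, the non-exercised difference passed when Gr mutant replicate 3 was left out (-1.79, adjusted p = 0.0389) or when all 12 libraries were fitted together (-1.57, adjusted p = 0.0435). It was smallest, at -1.23 (adjusted p = 0.179 in edgeR), without both libraries of high leukocyte level, and with the replicate block its adjusted p was 0.146. The exercised difference passed when wild-type replicate 3 was left out (-1.43, adjusted p = 0.0339) or when no filter on low counts was used (-1.27, adjusted p = 0.0482). The smallest exercised difference, -0.80 (adjusted p = 0.277 in edgeR), was that without wild-type replicate 2 and Gr mutant replicate 3. With 3 libraries a side, exact permutation has a smallest two-sided p of 0.1, so it was not used.

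**Figure D1:**
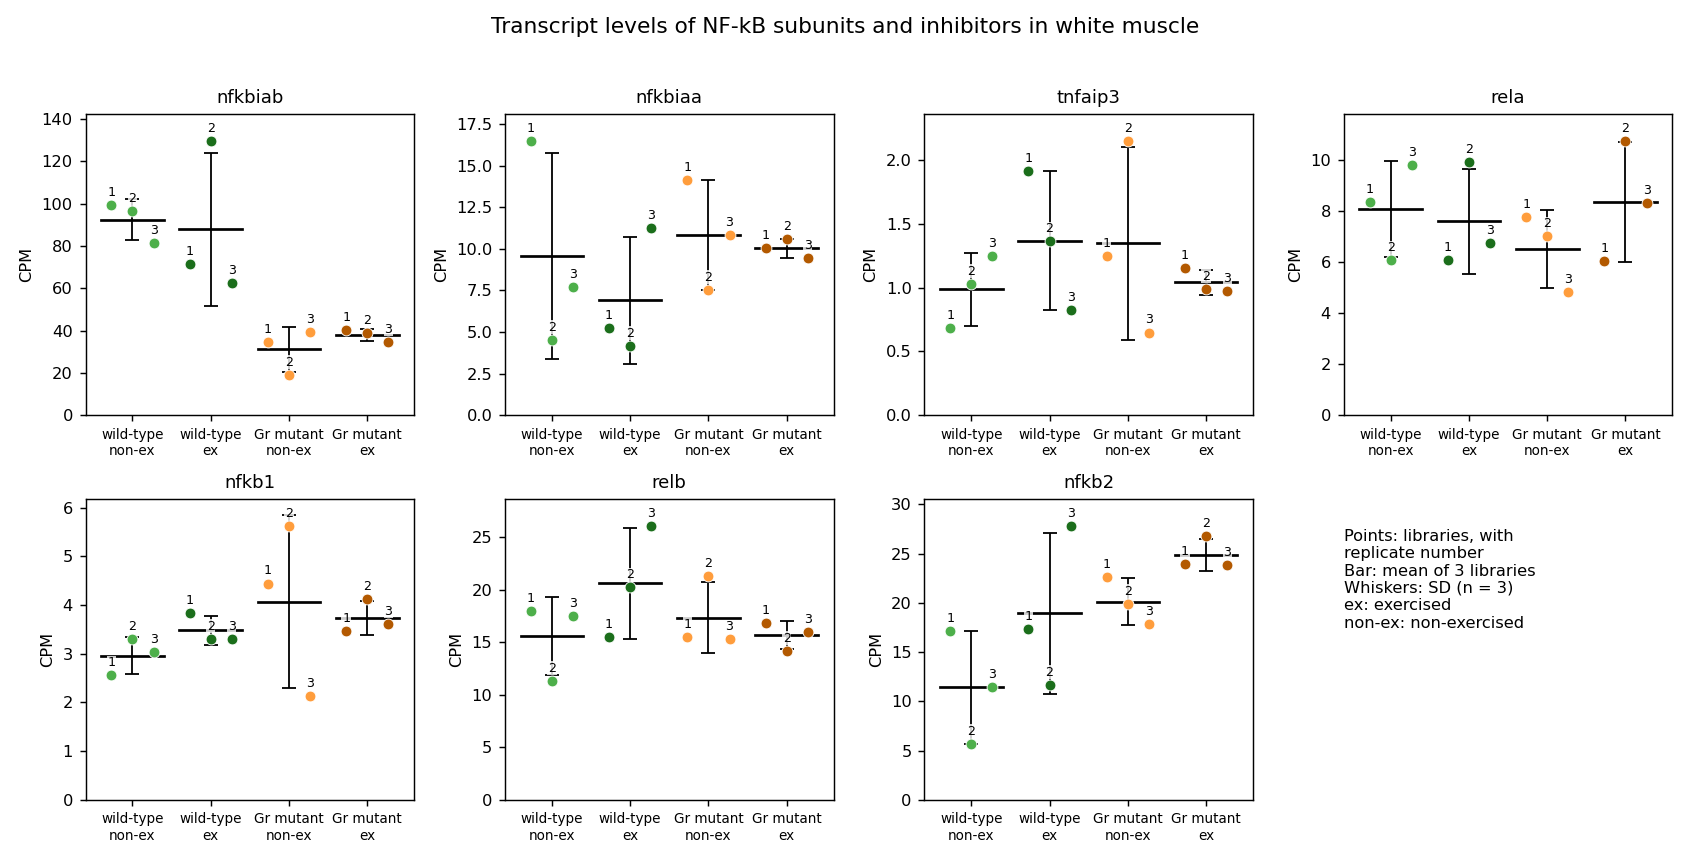
Level of each member in CPM (vertical axes, starting at 0) in the 12 libraries, by group. Points are libraries with their replicate number, the bar is the mean and the whiskers are the SD of 3 libraries. For nfkbiab the 6 wild-type libraries lie at 62.4 CPM or more and the 6 Gr mutant libraries at 40.1 CPM or less. Libraries of both genotypes overlap for the other 6 members.

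Exercise left no detectable change in nfkbiab. Exercised against non-exercised fish differed by -0.07 on the log2 scale in wild-type fish (95% interval -0.74 to 0.59, adjusted p = 0.932 in edgeR) and by 0.29 in Gr mutants (-0.39 to 0.97, adjusted p = 0.759 in edgeR). The order of the group means was 92.4 ± 9.66, 87.8 ± 36.3, 37.9 ± 2.82 and 31.1 ± 10.6 CPM (SD, n = 3) in non-exercised wild-type fish, exercised wild-type fish, exercised Gr mutants and non-exercised Gr mutants. Neighbours in this order overlapped within each genotype and did not overlap between genotypes. The highest library, exercised wild-type replicate 2, is the one with the high level of erythrocyte genes, and the lowest, non-exercised Gr mutant replicate 2, is one of the libraries with a high level of leukocyte genes. The part of either in these values was not tested.

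The paralogue nfkbiaa encodes the other zebrafish copy of IkBa. It was measured at 16.5, 4.53 and 7.73 CPM in non-exercised wild-type fish, and at 5.25, 4.19 and 11.3 CPM in the exercised ones. The mutants had 14.2, 7.54 and 10.8 CPM without exercise and 10.1, 10.6 and 9.45 CPM with exercise. Unlike for nfkbiab, the range of the mutants lay inside that of the wild-type fish. The wild-type libraries varied the more, with an SD of 6.17 CPM without exercise, against 0.563 CPM in exercised Gr mutants. Over both exercise levels the mutants differed from wild-type fish by 0.35 on the log2 scale (standard error 0.314, 95% interval -0.33 to 1.03, adjusted p = 0.514 in edgeR). The interval holds no fall as large as that of nfkbiab. For exercise, the difference was -0.46 in wild-type fish (adjusted p = 0.736 in edgeR) and -0.11 in Gr mutants (adjusted p = 0.91 in edgeR), and the sign of the former turned, to 0.17, without non-exercised wild-type replicate 1.

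The balance of the IkBa copies within a library is free of scaling, since depth cancels out. In wild-type fish there were 6.04, 21.3 and 10.5 reads of nfkbiab for each read of nfkbiaa without exercise, and 13.6, 30.9 and 5.53 with exercise. In Gr mutants there were 2.45, 2.54 and 3.64 without exercise, and 3.98, 3.67 and 3.68 with exercise. Every wild-type library was above every mutant library, and the medians were 12.1 and 3.66 (n = 6 each). The ratio is made from the same counts of nfkbiab, so it is not separate from the difference of that gene. As the transcripts may differ in length, this is a ratio of reads and not of molecules, and it is given without a test. Reads of 50 nucleotides that match both copies equally well cannot be assigned to either by such counting, and their number was not tested. Both copies together gave 73.7 to 134 CPM in wild-type fish and 26.7 to 50.2 CPM in Gr mutants. As nfkbiab gave 71.0 to 96.9% of the reads of the pair, this sum largely repeats its difference.

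**Figure D2:**
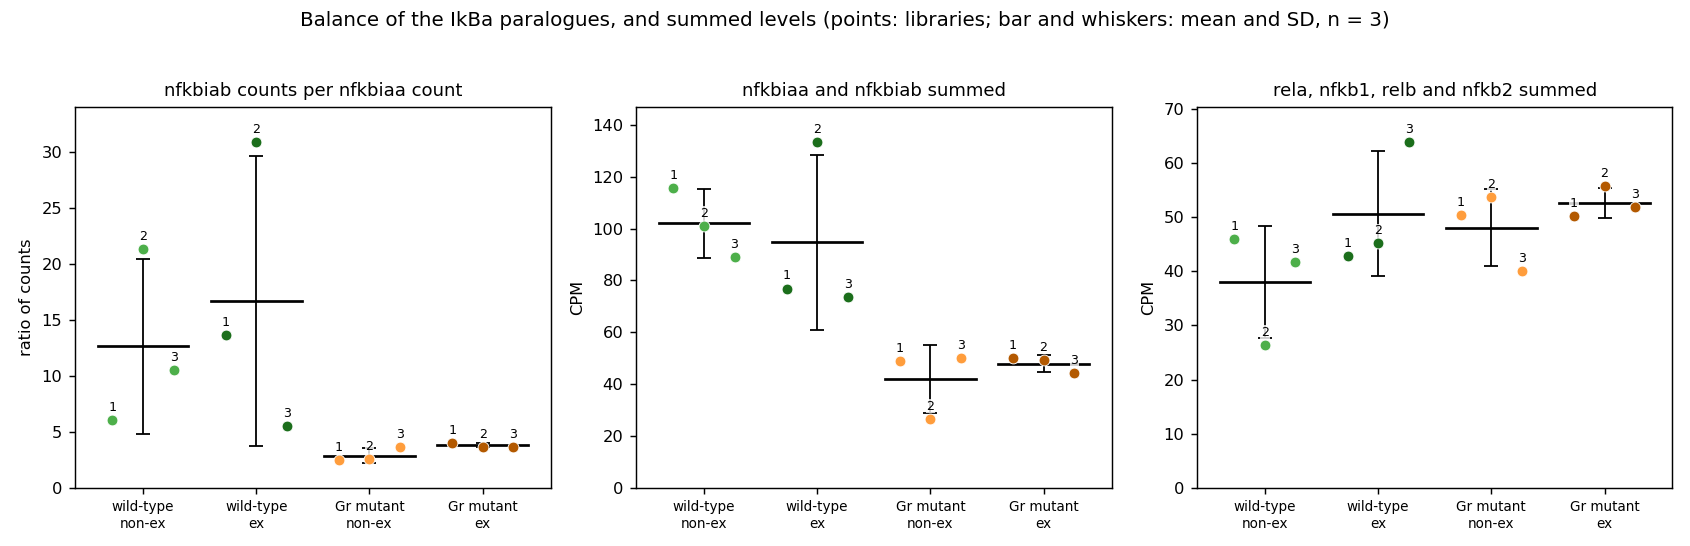
Left, reads of nfkbiab for each read of nfkbiaa; middle, summed CPM of nfkbiaa and nfkbiab; right, summed CPM of rela, nfkb1, relb and nfkb2, by group. Points are libraries with their replicate number, bars and whiskers are the mean and SD of 3 libraries, and axes start at 0. Wild-type and Gr mutant libraries do not overlap in the left and middle panels (ratio of at least 5.53 against at most 3.98) and overlap in the right panel. The middle panel largely repeats nfkbiab, which gave 71.0% or more of the reads of the pair. The left panel is made from the same counts of nfkbiab and is not separate from its difference.

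The third inhibitor gene, tnfaip3, encodes A20, which edits ubiquitin chains on the signalling proteins upstream of the IkB kinases. It was the least sampled member, with 6 to 37 counts per library, and 6 counts have a 95% Poisson interval of 2.2 to 13.1 that covers counting error only. Its level was 0.682, 1.03 and 1.25 CPM in non-exercised and 1.92, 1.36 and 0.827 CPM in exercised wild-type fish. The mutants had 1.24, 2.14 and 0.648 CPM without and 1.16, 0.991 and 0.972 CPM with exercise. The groups overlapped in every comparison. The largest fitted difference was 0.47 on the log2 scale, between non-exercised Gr mutants and wild-type fish (standard error 0.498, adjusted p = 0.684 in edgeR). The intervals reach from -1.54 to 1.61 over the 4 pairwise comparisons, so 2-fold changes lie inside some of them and were not detectable at this depth.

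Among the subunits, rela encodes the activating partner of the classical NF-kB dimer. Its level was 8.35, 6.07 and 9.81 CPM in non-exercised and 6.10, 9.93 and 6.77 CPM in exercised wild-type fish. Among Gr mutants it was 7.76, 7.01 and 4.81 CPM without and 6.03, 10.7 and 8.33 CPM with exercise. It had the narrowest spread of all members over the 12 libraries, 2.23-fold from the lowest to the highest. The groups overlapped in every comparison, and the fitted differences lay between -0.29 and 0.34 on the log2 scale, with adjusted p-values of 0.653 or more in edgeR. Without both libraries of high leukocyte level, where 1 non-exercised mutant is left, rela differed by 0.81 for exercise in Gr mutants (adjusted p = 0.542 in edgeR) and by -0.76 for genotype in non-exercised fish (adjusted p = 0.433 in edgeR).

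The gene nfkb1 encodes the precursor of the partner of rela in the classical NF-kB dimer. Its level was 2.56, 3.29 and 3.03 CPM in non-exercised and 3.83, 3.31 and 3.31 CPM in exercised wild-type fish. In Gr mutants it was 4.44, 5.62 and 2.13 CPM without and 3.47, 4.13 and 3.61 CPM with exercise. The exercised wild-type libraries lay just above the non-exercised ones without overlap, as did those of 10.4% of all genes, and the difference of 0.24 on the log2 scale did not pass (standard error 0.231, adjusted p = 0.677 in edgeR). The non-exercised mutants differed from wild-type fish by 0.48 (standard error 0.375, adjusted p = 0.56 in edgeR). This difference was -0.48 (adjusted p = 0.638 in edgeR) without the libraries of high leukocyte level, which hold the highest and second highest values of nfkb1, and this value rests on the 1 mutant library left (2.13 CPM).

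The genes relb and nfkb2 encode the partners of the alternative NF-kB dimer, and the precursor made from nfkb2 also works as an inhibitor until it is cut. The level of relb was 17.99, 11.3 and 17.5 CPM in non-exercised and 15.5, 20.3 and 26.1 CPM in exercised wild-type fish. Values of relb in Gr mutants were 15.5, 21.3 and 15.3 CPM without and 16.8, 14.2 and 16.0 CPM with exercise. The groups overlapped in every comparison. The largest difference of relb was -0.43 on the log2 scale, between exercised Gr mutants and exercised wild-type fish (standard error 0.227, adjusted p = 0.349 in edgeR).

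The level of nfkb2 was 17.1, 5.66 and 11.4 CPM in non-exercised and 17.4, 11.7 and 27.8 CPM in exercised wild-type fish. Gr mutants had 22.7, 19.9 and 17.9 CPM without and 23.9, 26.8 and 23.9 CPM with exercise. The mutants varied less than the wild-type fish, with ranges of 17.9 to 26.8 and 5.66 to 27.8 CPM. Non-exercised mutants lay above non-exercised wild-type fish without overlap, as in 10.7% of all genes, and exercised mutants above non-exercised mutants, as in 9.13% of all genes. Neither difference passed. On the log2 scale the former was 0.83 (standard error 0.379, adjusted p = 0.309 in edgeR) and the latter 0.30 (standard error 0.229, adjusted p = 0.669 in edgeR). After nfkbiab, nfkb2 had the smallest p-value for genotype over both exercise levels: it was 0.60 higher on the log2 scale (standard error 0.257, 95% interval 0.05 to 1.16, unadjusted p = 0.0355), which did not pass after adjustment (adjusted p = 0.162 in edgeR). An unadjusted p-value under 0.05 was found in 25.4% of all genes in this comparison. Without all 4 libraries that stand apart the difference was 0.36 (adjusted p = 0.622 in edgeR). For exercise over both genotypes, nfkb2 differed by 0.52 (standard error 0.257, adjusted p = 0.373 in edgeR), and in wild-type fish by 0.74 (standard error 0.438, adjusted p = 0.493 in edgeR).

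**Figure D3:**
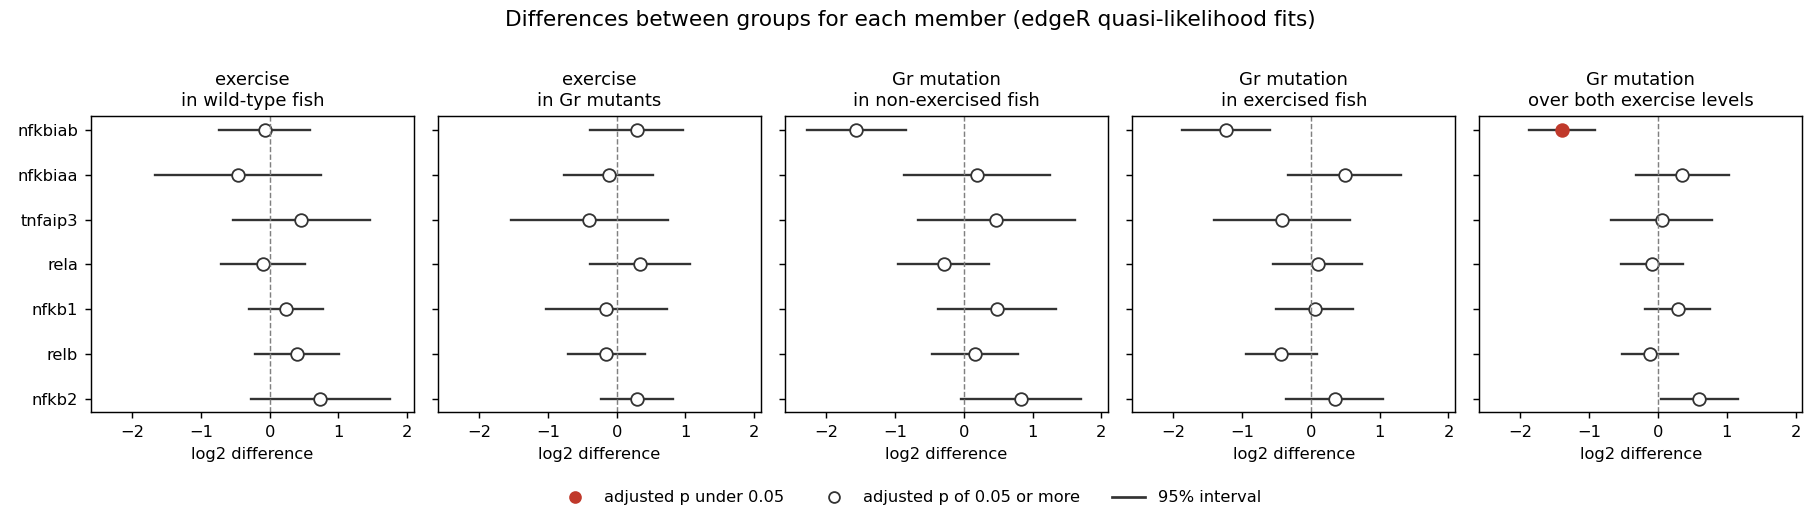
Difference on the log2 scale (horizontal axes) of each member in the 4 pairwise comparisons and for genotype over both exercise levels. Circles are edgeR estimates, lines are 95% intervals, and a filled red circle marks an adjusted p under 0.05. The only filled circle is nfkbiab over both exercise levels, at -1.39, and the interval of every other member except nfkb2 in that panel holds 0.

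Counted by comparison, no member passed for exercise. In wild-type fish 0 of 7 passed in edgeR, where 0.37% of all genes did, and 0 of 7 had an unadjusted p under 0.05, beside 13.9% of all genes. In Gr mutants 0 of 7 passed, where 0% of all genes did, and 0 of 7 had an unadjusted p under 0.05, beside 10.5%. Over both genotypes 0 of 7 passed, beside 1.24% of all genes, and 0 of 7 had an unadjusted p under 0.05, beside 15.1%. DESeq2 called 0 of 7 in these 3 comparisons, where it called 2.71%, 0.72% and 4.83% of all genes. The median difference of the members was 0.24 in wild-type fish and -0.11 in Gr mutants, beside 0.03 and -0.02 over all genes tested.

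For genotype, 0 of 7 members passed in edgeR in non-exercised fish (0.233% of all genes did) and 0 of 7 in exercised fish (3.02% of all genes did). In each of them 1 of 7, nfkbiab, had an unadjusted p under 0.05, as did 17.2% and 19.5% of all genes, and DESeq2 called that gene in both. The median differences were 0.19 and 0.05, beside 0.05 and -0.01 over all genes. Comparisons of exercise and of genotype share libraries, so their values are not independent of each other. No interaction of exercise and genotype was found for any member: 0 of 7 passed in edgeR (0% of all genes did), 0 of 7 had an unadjusted p under 0.05 (8.39% did), and DESeq2 called 0 of 7 (0.199% were called). The interaction term of nfkbiab was 0.36 on the log2 scale (standard error 0.441, 95% interval -0.60 to 1.32, adjusted p = 0.879 in edgeR). The term farthest from 0 was that of tnfaip3, -0.84 (standard error 0.674, adjusted p = 0.791 in edgeR), and it was 0.22 without both libraries of high leukocyte level.

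The libraries of high leukocyte level also held extreme values of several members. The non-exercised Gr mutant replicate 2 held the highest levels of tnfaip3 (2.14 CPM) and nfkb1 (5.62 CPM) and the lowest level of nfkbiab (19.1 CPM) of all 12 libraries, and its relb was the highest of the mutants (21.3 CPM). Replicate 1 of that group, which had the higher leukocyte level, came second for nfkb1 (4.44 CPM) and for nfkbiaa (14.2 CPM). Its tnfaip3 (1.24 CPM), relb (15.5 CPM) and nfkbiab (34.7 CPM) were neither the highest nor the lowest of all 12 libraries. Neither library held the highest or the lowest level of rela or nfkb2. Of the 13 leukocyte genes, 13 had counts in both libraries. In the other libraries 11 to 13 did, with pax5 at 0 counts in 9 of the 12 libraries and mpx in 1. Without these libraries the fitted difference between exercised and non-exercised mutants turned from -0.15 to 0.83 for nfkb1 and from -0.15 to 0.07 for relb, none past the threshold. These signs rest on 1 non-exercised mutant, replicate 3. That library had the highest sums of connective tissue genes (4821 CPM) and of fast muscle markers (151365 CPM) among the non-exercised fish. The part of these contents in the signs was not tested. How much of the levels of the members came from leukocytes was not tested. The level of nfkbiab in the 4 mutant libraries of lower leukocyte level was 34.7 to 40.1 CPM, also below every wild-type library.

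**Figure D4:**
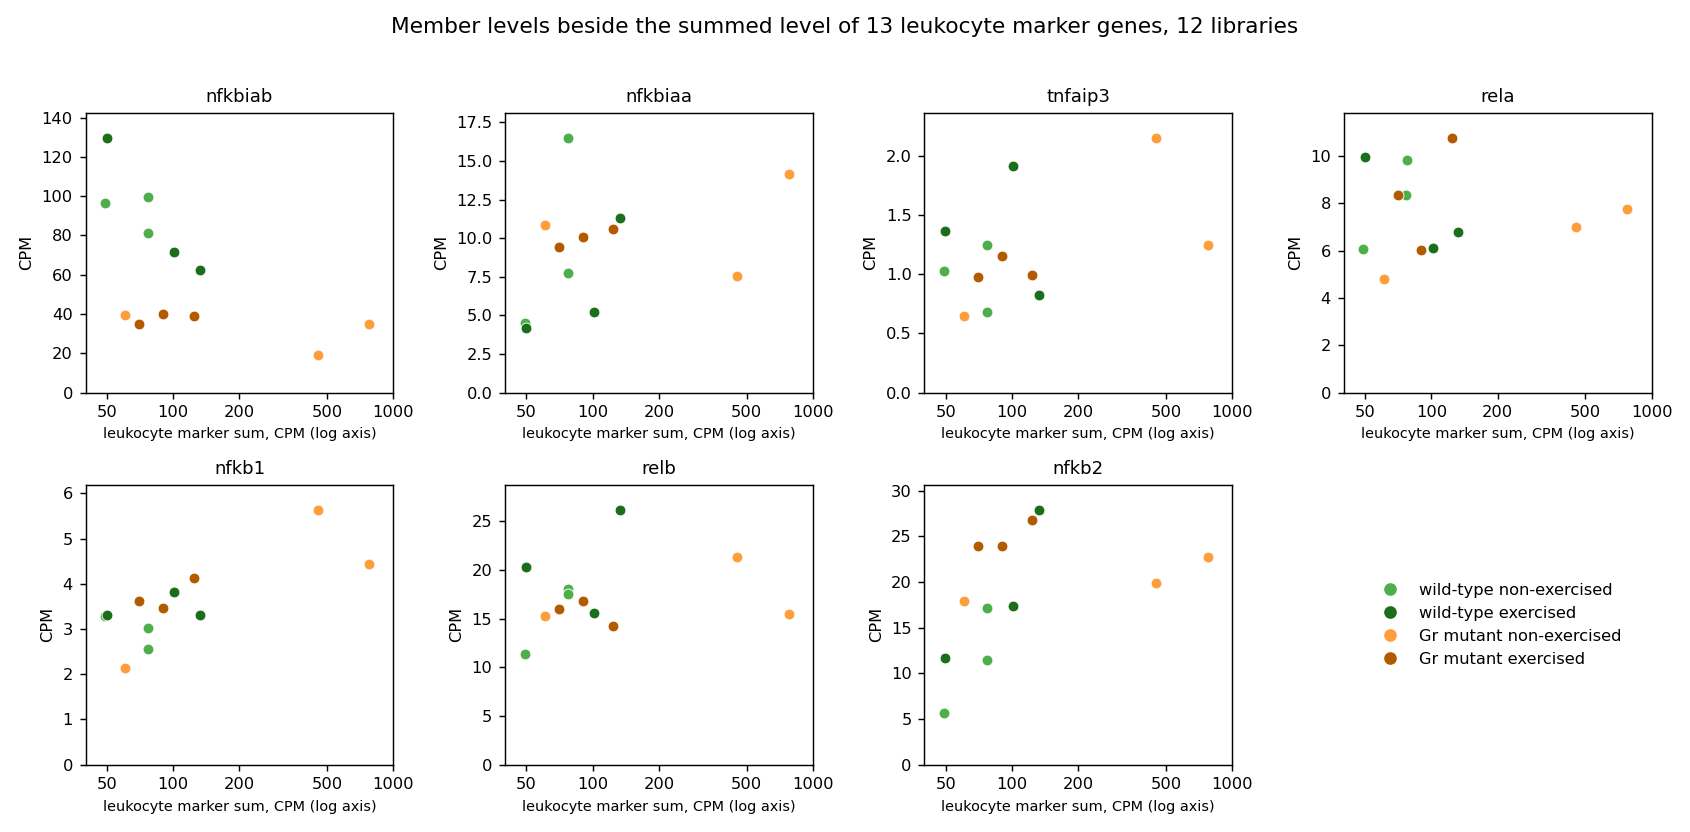
Level of each member in CPM (vertical axes, starting at 0) against the summed level of 13 leukocyte genes in CPM (horizontal log axis) in the 12 libraries, coloured by group. The non-exercised Gr mutant replicates at 453 and 776 CPM lie apart from the other 10 libraries, and they hold the highest and second highest values of nfkb1. For nfkbiab the 6 mutant libraries lie below the wild-type ones. The wild-type libraries have leukocyte sums of 49.1 to 133 CPM, so the genotypes cannot be compared at a high leukocyte level.

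The members did not move as one block across libraries. Over the 12 libraries, Pearson's r between log2 CPM values was above 0 for 13 of the 21 pairs of members and ranged from -0.62 to 0.77. The points share groups, libraries and depth, so these values are descriptions. The closest pair was nfkb1 and tnfaip3 (r = 0.773, and 0.811 after removal of the group means), the members that were highest in the same library. The next was nfkbiaa and nfkb2 (r = 0.668, and 0.919 after removal of the group means), which varied together within groups. In non-exercised wild-type fish, for example, both were highest in replicate 1 and lowest in replicate 2. By contrast, the r of nfkbiab was below 0 with 5 of the other 6 members, lowest with nfkb2 (r = -0.62, and -0.40 after removal of the group means). After that removal its lowest r was with nfkb1 (-0.57). By Spearman's rank correlation, nfkbiab was lowest with nfkb1 (-0.66) and above 0 with rela and relb (0.14 each).

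The patterns most like that of nfkbiab among 16056 genes were those of dnajc4, a gene of the DnaJ co-chaperone family (r = 0.97), cebpd, which encodes the transcription factor C/EBP delta (r = 0.963), and ucp3, which encodes a mitochondrial uncoupling protein (r = 0.953). With group means removed, their r was 0.833, 0.849 and 0.753. As the genes were picked by r over the same libraries, the choice favours these values too. For nfkbiaa the most similar patterns were those of stc2a, znf644a and bhlhe40 (r = 0.885, 0.885 and 0.876), of which bhlhe40 encodes a repressor linked to the circadian clock. For nfkb2 they were pld1b, arhgap1 and badb (r = 0.95, 0.931 and 0.924), for rela SBNO1, zgc:174700 and dyrk1aa (r = 0.916, 0.883 and 0.882), and for relb si:ch73-171a6.2, mcoln1a and si:ch211-235i11.4 (r = 0.852, 0.835 and 0.821). For nfkb1 they were BX004828.2, MYO9B (2 of 2) and si:dkey-37m8.8 (r = 0.969, 0.913 and 0.912), and for tnfaip3 arhgef10lb, VAV3 (1 of 3) and MAP3K11 (r = 0.931, 0.899 and 0.846). These are the highest of very many correlations over 12 libraries and are given without a test.

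The rest of the pathway was described with 6 lists of 100 symbols, 88 of which were in the files. For genotype over both exercise levels, 75 of these genes were tested and 4 passed in edgeR, 2 higher and 2 lower in the mutants, beside 7.93% of all genes. Among 20 genes that NF-kB switches on in mammals, gadd45ba was lower and myca higher. Among 12 negative regulators, tnip2 was higher and tax1bp1a lower. None passed among 7 other Rel and IkB genes, 9 IkB kinase genes, 16 adaptors and 11 receptors, of which 1, 1, 3 and 5 had an unadjusted p under 0.05. So did 6 of the 12 negative regulators and 6 of the 20 genes switched on by NF-kB, and 25.4% of all genes. The median differences of the 6 lists lay between -0.30 (negative regulators) and 0.55 (receptors), beside 0.06 over all genes. A gene of low counts can pass the filter through the group where it is high. Against the 11 receptors tested here, 7 were tested for exercise in wild-type fish and 6 for genotype in exercised fish. The count and the median of the receptors can thus be partly set by the filter, and no conclusion is drawn from them.

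The stress response gene gadd45ba, whose mammalian counterpart is induced by NF-kB and restrains cell death, was measured at 137.8, 128.7 and 128.7 CPM in non-exercised and 165.8, 249.9 and 149.8 CPM in exercised wild-type fish. In Gr mutants it was at 12.9, 8.87 and 27.1 CPM without and 18.4, 15.2 and 18.8 CPM with exercise. Its genotypes did not overlap, as in 2.42% of all genes with lower levels in the mutants. It was 9.35-fold lower over both exercise levels (log2 -3.22, standard error 0.268, adjusted p = 0.00014 in edgeR), and it also passed in exercised fish (log2 -3.46, adjusted p = 0.00218 in edgeR). In non-exercised fish the log2 difference was -3.01 (adjusted p = 0.0445 in edgeR). It passed with Gr mutant replicate 3 left out, and not with any of the other 5 libraries left out (adjusted p of 0.0687 to 0.189). In those 5 fits the difference was -3.03 to -2.71, and 0 to 55 of all genes passed, against 35 with no library left out.

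The transcription factor gene myca was at 0.779 to 2.13 CPM in wild-type fish and at 2.31 to 10.3 CPM in Gr mutants, 4.22-fold higher in the latter (log2 2.08, standard error 0.379, adjusted p = 0.00772 in edgeR). The wild-type levels of myca rest on 8 to 26 counts per library. Its highest level was that of exercised Gr mutant replicate 3, the library with the high level of oocyte genes, and the other mutants reached at most 5.18 CPM. The part of that content was not tested. The gene of the A20-binding protein tnip2 was at 1.34 to 3.46 CPM in wild-type fish and 4.29 to 5.97 CPM in Gr mutants (log2 1.00, standard error 0.208, adjusted p = 0.0138 in edgeR). The gene tax1bp1a, whose mammalian counterpart is an adaptor of A20, was at 7.23 to 13.3 CPM in wild-type fish and 4.32 to 6.94 CPM in Gr mutants (log2 -0.75, standard error 0.177, adjusted p = 0.0233 in edgeR). The genotypes did not overlap for any of these genes. Levels without overlap were found as higher in the mutants in 1.28% and as lower in 2.42% of all genes. The call of tax1bp1a was lost without non-exercised wild-type replicate 3 (-0.67, adjusted p = 0.0551), exercised wild-type replicate 2 (-0.64, adjusted p = 0.0634) or exercised Gr mutant replicate 3 (-0.73, adjusted p = 0.0508). In these fits, in the same order, 685, 639 and 785 of all genes passed, against 1274 with no library left out. Without all 4 libraries that stand apart, the differences of myca, tnip2 and tax1bp1a were 1.56, 0.83 and -0.50 and did not pass (adjusted p of 0.113, 0.201 and 0.284 in edgeR).

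**Figure D5:**
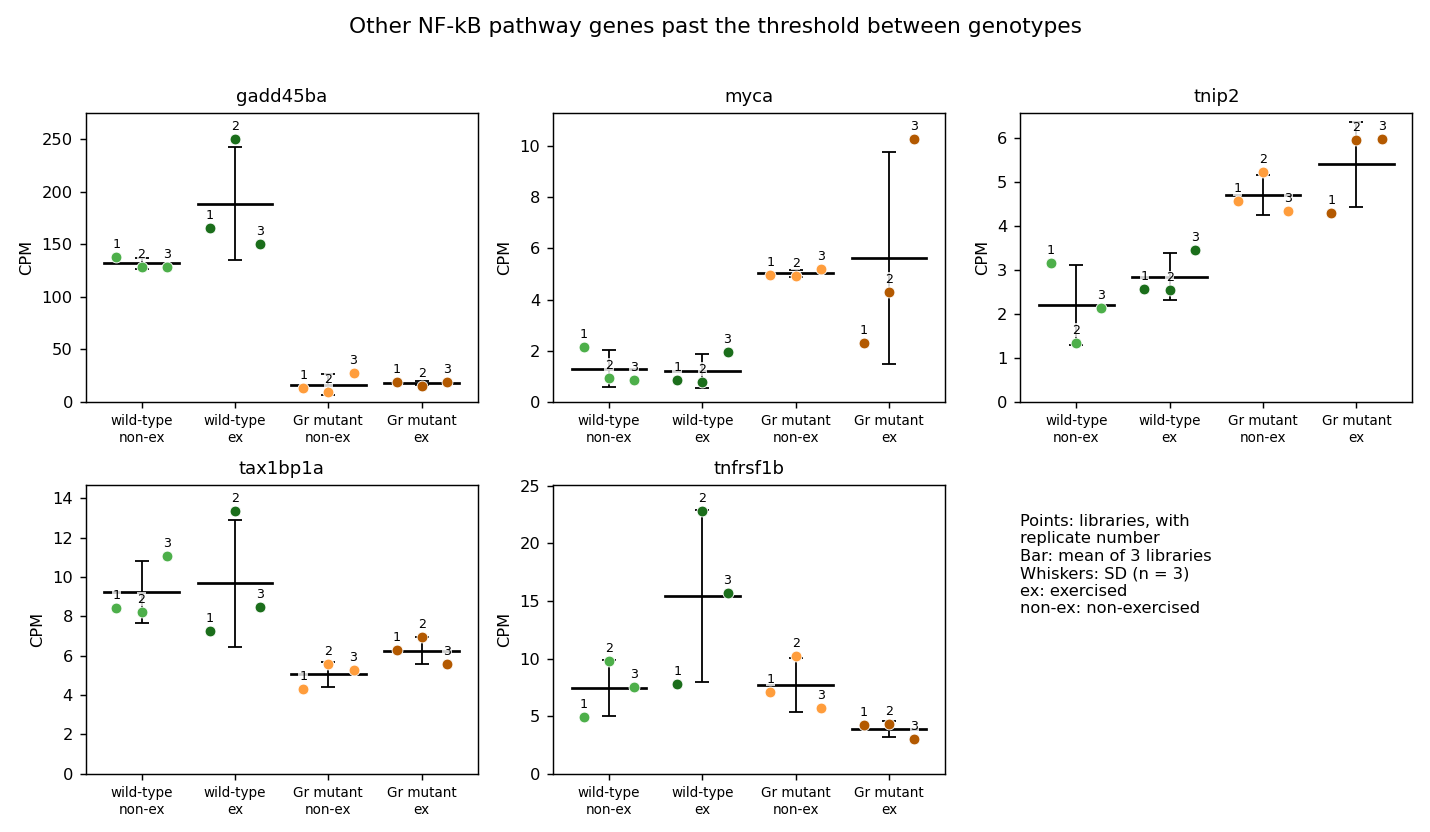
Level in CPM (vertical axes, starting at 0) of the 5 genes of the pathway lists that passed the threshold between genotypes, in the 12 libraries by group. Points are libraries with their replicate number, and bars and whiskers are the mean and SD of 3 libraries. The genes gadd45ba and tax1bp1a are lower and myca and tnip2 higher in all 6 mutant libraries. In contrast, tnfrsf1b separates the genotypes only in exercised fish, at 7.80 CPM or more against 4.29 CPM or less. Levels lower in exercised mutants without overlap, with 3 libraries against 3, were found in 12.8% of all genes.

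A receptor gene for tumour necrosis factor, tnfrsf1b, passed within exercised fish. It was at 7.80, 22.8 and 15.7 CPM in wild-type fish and at 4.21, 4.29 and 3.06 CPM in Gr mutants, 4.04-fold lower (log2 -2.02, standard error 0.375, adjusted p = 0.0316 in edgeR). Levels lower in exercised mutants without overlap, as those of tnfrsf1b, were found in 12.8% of all genes. Of 64 list genes tested in exercised fish 2 passed, both lower, this one and gadd45ba, beside 3.02% of all genes. The call was lost without wild-type replicate 2 (-1.62, adjusted p = 0.0881), Gr mutant replicate 1 (-2.08, adjusted p = 0.087), Gr mutant replicate 2 (-2.06, adjusted p = 0.113) or Gr mutant replicate 3 (-1.85, adjusted p = 0.131). In these fits, in the same order, 69, 190, 6 and 26 of all genes passed, against 426 with no library left out. Without both wild-type replicate 2 and Gr mutant replicate 3 it was -1.49 (adjusted p = 0.227 in edgeR). The wild-type replicate 2, the highest, is the library with the high level of erythrocyte genes, and its part was not tested.

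No list gene passed for exercise in edgeR, with 66 tested in each genotype and 75 over both. In wild-type fish the lowest p-values were those of nkrf, which encodes a repressor of NF-kB target genes, at 5.88 to 8.75 CPM without and 3.83 to 4.09 CPM with exercise (log2 -0.92, adjusted p = 0.131), and of tnfrsf1b (log2 1.06, adjusted p = 0.297). In Gr mutants they were those of tnfrsf1b (log2 -1.01, adjusted p = 0.438) and its relative tnfrsf1a (log2 -1.16, adjusted p = 0.444). Without both libraries of high leukocyte level, which had 10.9 and 20.5 CPM of tnfrsf1a against 6.76 CPM in the 1 non-exercised mutant left, these differences were -0.54 and -0.20 (adjusted p = 0.637 and 0.871 in edgeR). Over both genotypes they were those of nkrf (log2 -0.72, adjusted p = 0.0806), which DESeq2 called (adjusted p = 0.0194), and of sharpin, a subunit of the linear ubiquitin ligase, at 2.78 to 4.70 CPM without and 5.14 to 6.54 CPM with exercise (log2 0.54, adjusted p = 0.111).

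For the interaction, 0 of 75 list genes passed in edgeR and 10 had an unadjusted p under 0.05, beside 8.39% of all genes. The lowest p-values were those of tnfrsf1b (log2 -2.05, standard error 0.545, unadjusted p = 0.00255, adjusted p = 0.49) and of rel, the Rel subunit known best from lymphocytes (log2 -1.57, standard error 0.505, unadjusted p = 0.00886, adjusted p = 0.49). The level of rel was 8.23, 8.23 and 3.89 CPM in non-exercised Gr mutants, and the highest values are those of the libraries of high leukocyte level. In the other 3 groups it was between 1.24 and 4.86 CPM. The interaction term of rel was -0.76 without these libraries and -1.13 without all 4 libraries that stand apart. That of tnfrsf1b was -1.61 without the libraries of high leukocyte level and -1.11 without all 4. The median interaction term of the 11 receptors was -2.03, beside -0.03 over all genes, and in non-exercised fish the median genotype difference of the 9 receptors tested was 1.12, with 7 of 9 above 0, beside a median of 0.05 and 53.6% above 0 over all genes. The filter admits a gene of low counts through the group where it is high. For exercise in wild-type fish 7 receptors were tested, and for genotype in exercised fish 6. The medians of the receptor list can thus be partly set by the filter, and no conclusion is drawn from them. Several of these receptors are best known from leukocytes, and the part of the high leukocyte level in these medians was not tested.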

How the data were processed

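Reads (single-end, 50 nucleotides) were mapped by the authors with TopHat 2.0.5 to GRCz10, annotation release 80. They dropped secondary alignments with SAMtools 0.1.18 and counted reads per gene with HTSeq 0.5.3p9. Their deposited values are raw counts of 31962 genes, in 4 tables that share libraries and hold identical counts for the same library. The kit does not mark the strand, so overlapping antisense transcripts cannot be told apart. The tables also hold the authors' own means, fold changes and p-values of 4 comparisons, which were not used, and 0 sample columns were left unused. All 7 members were matched by identifier to reference symbols. Sequences and transcript lengths were not used here.

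Counts were fitted with edgeR 4.0.16 (quasi-likelihood test, TMM) in R 4.3.3. Genes needed 10 or more counts in 3 or more libraries, p-values were adjusted over all genes tested (Benjamini-Hochberg), and the threshold was 0.05. Pairwise comparisons used their own 6 libraries. Main effects (with the other factor as covariate) and the interaction used all 12. Correlations used log2 CPM with a prior count of 2. Python 3.11.15 (pandas 2.3.3, numpy 2.4.6, scipy 1.17.1, matplotlib 3.10.9) made tables and plots. Scripts were tested on simulated data.

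The members and lists were chosen with earlier results of these data known. List genes are named if they passed (at most 6 a comparison), otherwise the 2 with the lowest p-values are named, and 3 genes of most similar pattern are named for each member. Alternatives were DESeq2 size factors in edgeR, no count filter, DESeq2 1.42.0, the replicate number as a block, 1 fit over all 12 libraries, and each library left out. Removal of libraries that stand apart was added after the data had been seen. Replicates are separate fish, and none was a copy of another (lowest chi-square per gene between replicates 16.9).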

Additional observations from a re-analysis of the deposited data

How the results depend on the processing

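Of 715 values of members under alternatives, 659 kept their direction and their side of the threshold, 49 changed sign, 6 passed where they had not, and 1 no longer passed. The cause of these changes was not tested. Some alternatives hold no value of tnfaip3, which missed the filter there. For exercise in Gr mutants it was fitted in 3 of 6 fits with 1 library left out and in 5 of 7 other alternatives. For genotype in non-exercised fish it was fitted in 5 of 6 other alternatives. The number of members called was 1 and not 0 in non-exercised fish under DESeq2 and in 1 fit over all 12 libraries, and in exercised fish under DESeq2 and without the filter on low counts. In these settings 726 and 184 of all genes passed in non-exercised fish, against 35 in the fit reported above. In exercised fish 944 and 505 passed, against 426. The number of members called was 0 and not 1 over both exercise levels without all 4 libraries that stand apart. Far fewer of all genes passed there as well. This removal and that of both libraries of high leukocyte level were chosen after seeing the data. With 1 library left out, the number of members called ranged from 0 to 1 in non-exercised and in exercised fish. Of all genes, 0 to 544 and 6 to 508 passed in these fits.

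Signs turned only for differences that had not passed. Without both libraries of high leukocyte level, which leaves 1 non-exercised Gr mutant, the effect of exercise in Gr mutants was -0.025 for nfkbiab, 0.83 for nfkb1 and 0.072 for relb, and over both genotypes it was -0.049 for nfkbiab. The genotype difference in non-exercised fish was -0.48 for nfkb1 and -0.040 for relb, and over both exercise levels it was -0.091 for nfkb1 and -0.46 for tnfaip3. The interaction was 0.57 for nfkb1 and 0.22 for tnfaip3. Without all 4 libraries, the effect of exercise in Gr mutants was 0.83 for nfkb1 and 0.041 for relb, that over both genotypes -0.27 for nfkbiab, the genotype difference over both exercise levels -0.16 for nfkb1 and -0.47 for tnfaip3, and the interaction 0.53 for nfkb1 and 0.25 for tnfaip3.

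With 1 library left out in turn, exercise in wild-type fish ranged from -1.01 to 0.17 for nfkbiaa, -0.43 to 0.12 for nfkbiab and -0.31 to 0.070 for rela. Exercise in Gr mutants ranged from -0.32 to 0.14 for nfkbiaa, -0.46 to 0.15 for nfkb1 and -0.25 to 0.028 for relb. Exercise over both genotypes ranged from -0.50 to 0.017 for nfkbiaa, -0.043 to 0.21 for nfkbiab, -0.069 to 0.22 for nfkb1 and -0.15 to 0.33 for tnfaip3. The genotype difference in non-exercised fish ranged from -0.15 to 0.80 for nfkbiaa, -0.025 to 0.26 for relb and -0.014 to 0.75 for tnfaip3, and in exercised fish from -0.088 to 0.34 for rela. Over both exercise levels it ranged from -0.21 to 0.012 for rela, -0.23 to 0.0027 for relb and -0.24 to 0.24 for tnfaip3. The interaction of nfkbiaa ranged from -0.28 to 0.90.

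The replicate number as a block changed no call of a member: nfkbiab over both exercise levels was -1.38 (adjusted p = 0.0153 in edgeR), and tnfaip3 turned to -0.0036. Of 18 same-numbered pairs, 1 had a correlation of deviations over 0.1 (-0.245 to 0.165). No pairing by number was seen, but with 3 libraries a group these correlations cannot exclude one. Under the block 4, 0, 0 and 223 genes passed in the 4 pairwise comparisons in the order of exercise in wild-type fish, exercise in Gr mutants, genotype without exercise and genotype with exercise, against 54, 0, 35 and 426 without it. For exercise over both genotypes 90 passed against 199, for genotype over both exercise levels 842 against 1274, and for the interaction 0 against 0. Of the other genes named, gadd45ba in non-exercised fish and tnfrsf1b in exercised fish did not pass with the block (adjusted p = 0.0793 and 0.0665 in edgeR), gadd45ba did not pass in non-exercised fish without the libraries of high leukocyte level (3 libraries against 1, -2.28, adjusted p = 0.0733) or in exercised fish without wild-type replicate 2 and Gr mutant replicate 3 (-3.26, adjusted p = 0.0502), and tnip2 and tax1bp1a did not pass over both exercise levels without the libraries of high leukocyte level (0.92 and -0.69, adjusted p = 0.0534 and 0.0738). With 3 libraries a group and as few as 6 counts for tnfaip3 and 23 for nfkb1, depth and number limit what could be found for these genes.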
